A study of Homo sapiens with 12 samples.

Results

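KLF2, S1PR1, CCR7, CXCR4, CXCR5, ITGAL and ITGA4 are genes that steer lymphocytes into, through and out of lymphoid tissue. They were chosen by name, with earlier results of these data known. They are a transcription factor, its egress receptor, 3 chemokine receptors and 2 integrin chains, and are 7 of the 55782 gene symbols in the count table. All 7 passed the filter on low counts that left 15535 genes for testing.

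The data are 12 RNA libraries, all from human cell lines grown together. One partner was a Jurkat T cell leukaemia line carrying LAG3 and PD1, the other a Raji B cell lymphoma line carrying the PD1 ligand PDL1, and the Raji cells were loaded in every group with the superantigen SED at 100 ng/ml, which joins the T cell receptor to class II molecules. The 4 arms were isotype with isotype, anti-LAG3 with isotype, anti-PD1 with isotype, and anti-PD1 with anti-LAG3 (called the combination here), each with both antibodies at 1, 0.1 or 0.01 µg/ml and collected after 24 h. These doses are those of the sample labels, while the treatment protocol describes a dilution series that begins at 10 µg/ml, and the sources do not settle the difference. The anti-PD1 antibody was MK3475 and the anti-LAG3 antibody MK4280. Each arm and dose gave 1 library, made from cells pooled over several wells, so a p-value here reflects only how these libraries vary, which may be technical variation. RNA of both lines was read together, so a value cannot be assigned to either line, and fewer cells of a type cannot be told apart from less RNA per cell.

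KLF2 is a zinc finger factor of resting lymphocytes that binds CACCC boxes and is known to drive S1PR1, the sphingosine-1-phosphate receptor that lets T cells leave lymphoid organs, and activation through the antigen receptor is known to lower it. CCR7, CXCR4 and CXCR5 are receptors that guide cells toward the chemokines CCL19 and CCL21, CXCL12, and CXCL13. ITGAL is the alpha chain of LFA-1, which pairs with ITGB2 and binds ICAM proteins, and ITGA4 is the alpha chain of VLA-4, which pairs with ITGB1 and binds VCAM1.

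The promoters of the 2 genes whose dose slopes passed a test, KLF2 and CXCR4, and of the KLF2 target S1PR1 are shown to set the KLF2 binding letters beside the values. Each run is the 250 bases before the RefSeq start on GRCh38.p14, written 5′ to 3′ on the gene's strand: chr19:16324576-16324825 on the plus strand for KLF2, chr1:101236769-101237018 on the plus strand for S1PR1 and chr2:136118150-136118399 on the minus strand for CXCR4. Capitals mark GGGCGG, the GC box, in KLF2 and CACCC, the KLF box, in S1PR1 and CXCR4, each on either strand.
KLF2: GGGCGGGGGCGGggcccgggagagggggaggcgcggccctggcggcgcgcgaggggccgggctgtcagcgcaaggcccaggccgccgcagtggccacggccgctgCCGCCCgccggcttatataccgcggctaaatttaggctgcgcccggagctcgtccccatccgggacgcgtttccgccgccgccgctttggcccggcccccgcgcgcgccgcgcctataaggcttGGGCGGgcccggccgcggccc
S1PR1: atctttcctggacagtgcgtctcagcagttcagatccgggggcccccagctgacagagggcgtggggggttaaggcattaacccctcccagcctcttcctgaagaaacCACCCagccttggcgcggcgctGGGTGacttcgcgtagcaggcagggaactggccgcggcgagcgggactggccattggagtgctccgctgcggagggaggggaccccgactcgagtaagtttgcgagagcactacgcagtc
CXCR4: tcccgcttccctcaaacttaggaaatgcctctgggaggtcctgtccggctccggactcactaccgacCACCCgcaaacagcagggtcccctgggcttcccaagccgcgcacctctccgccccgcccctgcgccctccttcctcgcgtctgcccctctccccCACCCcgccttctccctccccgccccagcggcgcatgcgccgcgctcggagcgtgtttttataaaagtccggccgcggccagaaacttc
RefSeq promoters were matched for 5 of the 7 members: KLF2, S1PR1, CXCR4, CXCR5 and ITGA4. Their RefSeq starts lie inside the gene coordinates given below, which come from GENCODE. Part of each run therefore overlaps the gene as placed there, and the CXCR5 run lies wholly inside it. CACCC was found 2 times in S1PR1, 2 times in CXCR4, 2 times in CXCR5 and 1 time in ITGA4, and 0 times in these letters of KLF2. Of all 35116 promoters of this length, 54.7% hold CACCC on either strand and so do most members matched. GGGCGG was found 4 times in KLF2, with the first pair side by side, 3 times in CXCR4 and 2 times in CXCR5, and 42.6% of all promoters hold it. GTAAACA, the core that FOXO1 binds, and TGAGTCA, the AP-1 site, were in none of the 5, against 2.98% and 4.2% of all promoters.

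Per length, the members ran from the most to the least abundant in the order CXCR4, ITGA4, CCR7, ITGAL, KLF2, CXCR5 and S1PR1. CXCR4 had a median over the 12 libraries of 91.9 RPKM (reads scaled by gene length and library size), higher than 97.3% of the genes tested. ITGA4 followed at 18.6 RPKM, CCR7 at 13.5 RPKM and ITGAL at 9.76 RPKM, and the ranges of these 4 over the libraries did not meet. KLF2 had 6.09 RPKM, CXCR5 2.04 RPKM and S1PR1 1.8 RPKM. The ranges of CXCR5 (1.79 to 2.64 RPKM) and S1PR1 (1.35 to 2.01 RPKM) overlapped, so their order is not separated by the spread over libraries.

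The members differed in how far they ranged across the 12 libraries. The highest library was 1.65 times the lowest for KLF2, 1.49 times for S1PR1, 1.47 times for CXCR5 and 1.35 times for CCR7. It was 1.25 times for ITGAL, 1.2 times for CXCR4 and 1.1 times for ITGA4, the steadiest of the 7. S1PR1 rested on 112 to 177 reads per library and KLF2 on 223 to 461, against 4818 to 8329 for CXCR4, so counting error alone is widest for S1PR1. The plot of values by arm and dose shows the 95% Poisson interval of each count.

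**Figure D1:**
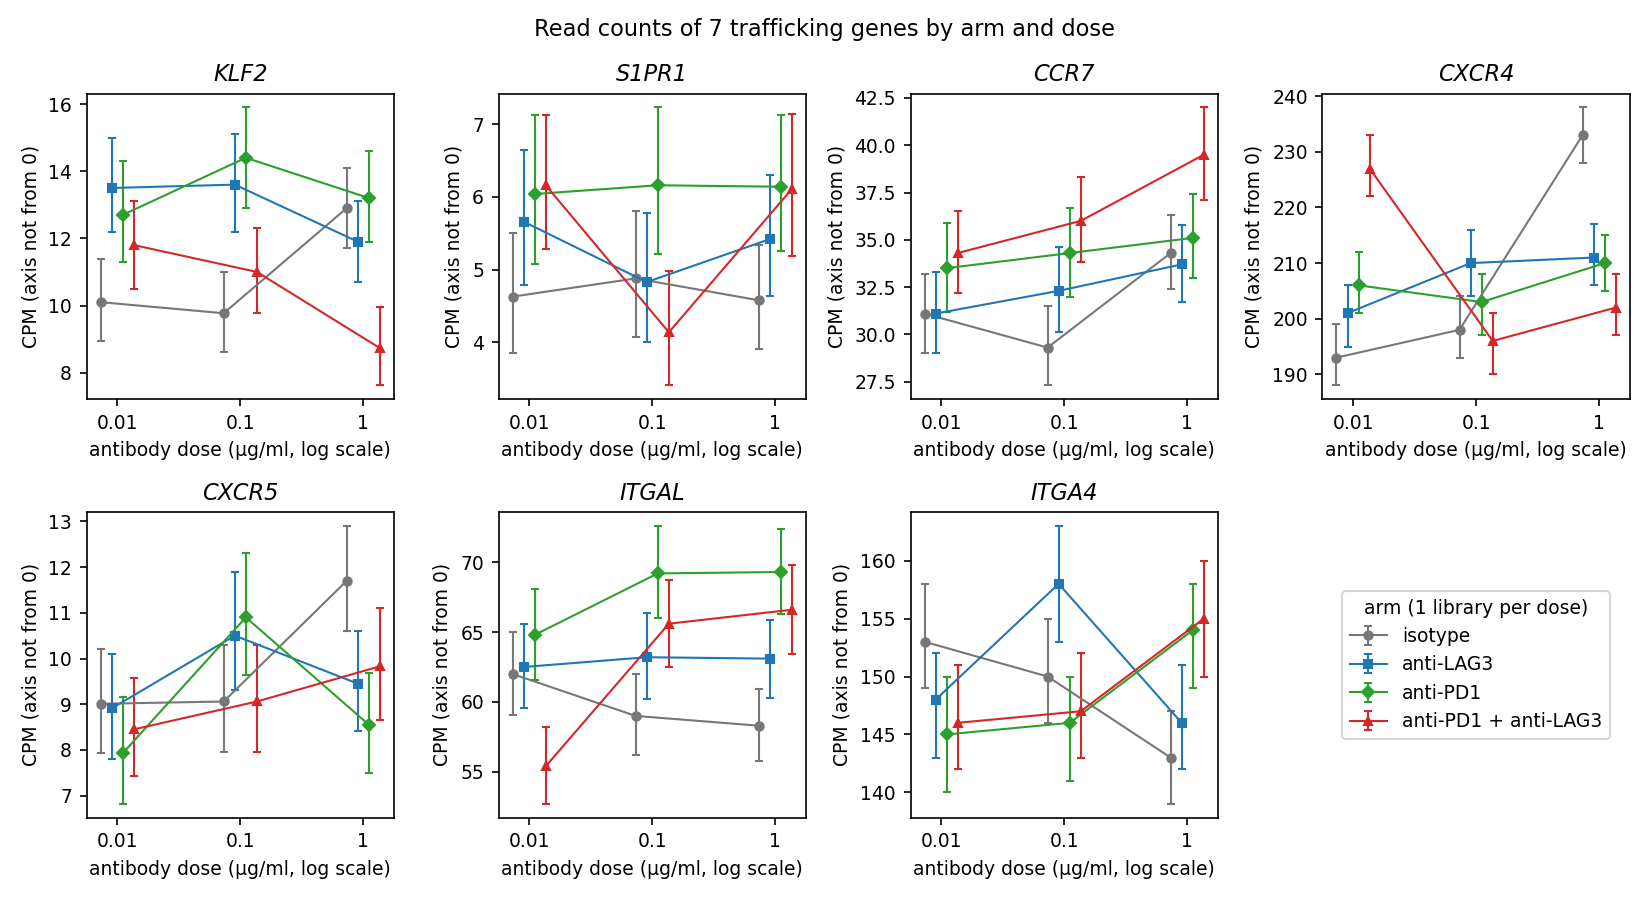
CPM (reads scaled to library size, vertical axis, not starting at 0) of the 7 genes against antibody dose in µg/ml on a log scale, 1 point per library, with 95% Poisson intervals of the count and lines joining the 3 doses of an arm. KLF2 in the combination arm runs down from 11.8 to 8.73 CPM with dose, while isotype has its highest value, 12.9 CPM, at 1 µg/ml.

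Library totals were 23593973 to 36581754 counts, the largest being isotype at 1 µg/ml. Of 24 Jurkat T markers 23 were over 1 CPM in all libraries and of 28 Raji B markers 28 were, with summed levels of 1684 to 2110 and 10580 to 12140 CPM. Of 10 markers of cells not in the co-culture 3 were over 1 CPM in all libraries and 0 were at 0 in all, with sums of 50.38 to 59.94 CPM. The 3 were PECAM1 (37.7 to 47.7 CPM), COL1A1 (5.78 to 10.6 CPM) and NKG7 (3.34 to 4.55 CPM), and none of the others went above 0.226 CPM. PECAM1 is also among the adhesion receptors listed here as trafficking genes. The mean log2 CPM of T markers minus that of B markers was -1.74 to -1.68 in the isotype arm, -1.77 to -1.57 in the anti-PD1 arm and -1.68 to -1.59 in the combination arm, and -1.54 to -1.46 in the anti-LAG3 arm, which stood apart from all 3.

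The question of how each blockade changed the genes was asked in 2 ways: the difference between arm means at matched doses, and the difference between arms in the dose slope, the log2 change per 10-fold rise in dose. KLF2 and CXCR4 were the only 2 of the 7 members that passed an adjusted p of 0.05 in any comparison of arms, both in the slopes of the combination against isotype. Both had a lower slope than the isotype series: relative to it, KLF2 fell by 23.9% and CXCR4 fell by 14.1% per 10-fold dose. In that comparison 4.63% of all genes tested were called, 0 members rose and 2 fell, and the members' median slope difference was -0.00246 on the log2 scale against 0.00614 over all genes tested.

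KLF2 (ENSG00000127528.5, chr19:16324817-16327874, plus strand, GRCh38) was at 12.9, 9.77 and 10.1 CPM in the isotype arm at 1, 0.1 and 0.01 µg/ml. In the combination arm it was at 8.73, 11 and 11.8 CPM in the same order of doses. The combination at 1 µg/ml was the lowest of the 12 libraries, and the isotype library at that dose was the highest of its arm, while at 0.1 and 0.01 µg/ml the combination was above isotype. The slope of the combination minus that of isotype was -0.39 ± 0.11 on the log2 scale (SE, 95% interval -0.621 to -0.168, edgeR quasi-likelihood adjusted p = 0.0368). Taken alone, neither series passed: the isotype slope was 0.18 ± 0.07 (edgeR adjusted p = 0.263, where 0.856% of genes were called and 0 of 7 members) and the combination slope -0.21 ± 0.08 (edgeR adjusted p = 0.171, where 4.27% were called and again 0 of 7 members). Without isotype at 1 µg/ml the isotype slope was -0.0484 and the difference -0.16 (edgeR adjusted p = 0.98), and leaving out the combination library at 1 µg/ml gave -0.28 (edgeR adjusted p = 0.499). Leaving out that at 0.01 µg/ml gave -0.52 (edgeR adjusted p = 0.394), leaving out isotype at 0.01 µg/ml gave -0.61 (edgeR adjusted p = 0.0564), and DESeq2 on all libraries gave -0.39 (adjusted p = 0.245).

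CXCR4 (ENSG00000121966.6, chr2:136114349-136118165, minus strand) was at 233, 198 and 193 CPM in the isotype arm at 1, 0.1 and 0.01 µg/ml. In the combination arm it was at 202, 196 and 227 CPM. Isotype at 1 µg/ml and the combination at 0.01 µg/ml were the 2 highest libraries of the 12, so the series crossed and the groups overlapped. The slope difference was -0.22 ± 0.05 (SE, 95% interval -0.322 to -0.115, edgeR adjusted p = 0.0109). The isotype slope alone was 0.13 ± 0.04 (edgeR adjusted p = 0.0661, with values of 0.00721 to 0.0478 in 9 alternatives that passed) and the combination slope -0.08 ± 0.04 (edgeR adjusted p = 0.227). Each of those libraries decided the call: without isotype at 1 µg/ml the difference was -0.12 (edgeR adjusted p = 0.93), and leaving out the combination at 0.01 µg/ml gave -0.0869 (edgeR adjusted p = 0.917). Over the whole table the same comparison made 719 calls with all libraries, 34 without isotype at 1 µg/ml and 101 with the combination at 0.01 µg/ml left out.

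**Figure D2:**
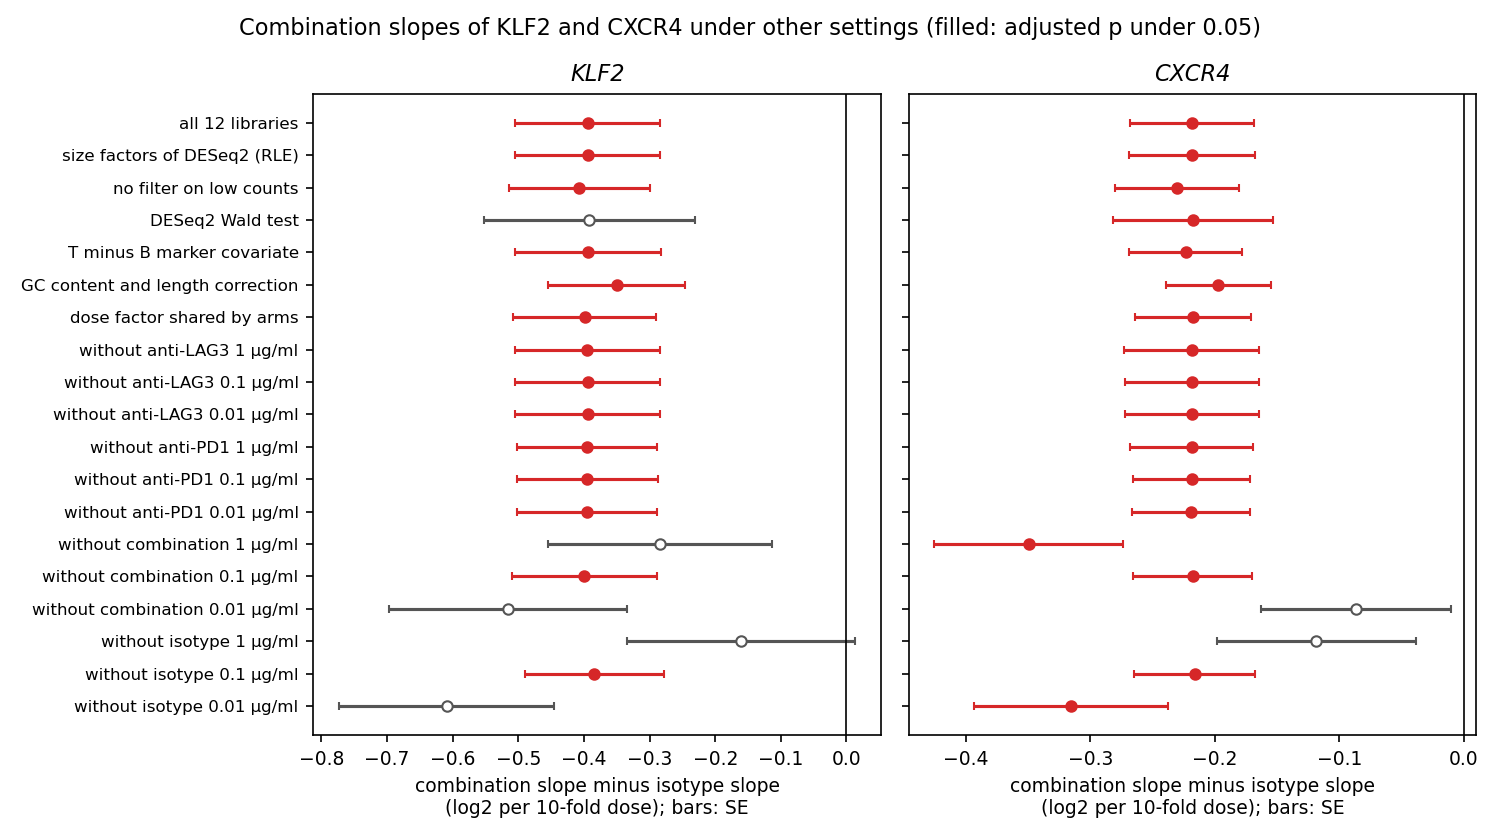
Combination minus isotype dose slope (log2 per 10-fold dose, horizontal axis) of KLF2 and CXCR4 under each setting or with 1 library left out, with SE bars, filled where the adjusted p is under 0.05. KLF2 moves from -0.39 to -0.16 and CXCR4 from -0.22 to -0.12 when isotype at 1 µg/ml is left out.

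S1PR1 (ENSG00000170989.9, chr1:101236865-101243713, plus strand), the KLF2 target, did not pass in the same comparison. It was at 4.58, 4.88 and 4.63 CPM in the isotype arm at 1, 0.1 and 0.01 µg/ml and at 6.11, 4.14 and 6.16 CPM in the combination arm. The combination at 0.1 µg/ml was the lowest of the 12 libraries, while the other combination libraries were level with those of anti-PD1. The slope difference was -0.00 ± 0.17 with a 95% interval of -0.346 to 0.341 (edgeR adjusted p = 0.995). The KLF2 and S1PR1 intervals overlapped, and the difference between the genes was not tested. Over the 12 libraries KLF2 and S1PR1 had a Pearson r of 0.21 and a Spearman rho of 0.25.

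The slopes of the other members against isotype did not pass in the combination. ITGAL was at 58.3, 59 and 62 CPM in the isotype arm at 1, 0.1 and 0.01 µg/ml and at 66.6, 65.6 and 55.4 CPM in the combination arm, so the combination was above isotype at the upper doses and lowest of the 12 libraries at 0.01 µg/ml. Its slope difference was 0.18 ± 0.06 (edgeR adjusted p = 0.0723), and its own combination slope was 0.13 (edgeR adjusted p = 0.063). The difference passed with a correction for GC content and gene length (0.18, edgeR adjusted p = 0.0281). Leaving out the combination at 0.01 µg/ml gave 0.0655 (edgeR adjusted p = 0.971) and an own slope of 0.0219, and leaving out the combination at 1 µg/ml gave 0.29 (edgeR adjusted p = 0.101). ITGA4 had a slope difference of 0.09 ± 0.05 (edgeR adjusted p = 0.331), CCR7 of 0.03 ± 0.07 (edgeR adjusted p = 0.877) and CXCR5 of -0.09 ± 0.13 (edgeR adjusted p = 0.796).

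The single antibodies gave 0 of 7 members in the same test of slopes, anti-LAG3 with 0.0708% of genes called and anti-PD1 with 0.264%. Unadjusted p under 0.05 was reached by 1 member in each, and the share of all genes at that unadjusted threshold is not given here. KLF2 had a slope of -0.28 ± 0.10 relative to isotype under anti-LAG3 (edgeR adjusted p = 0.477) and of -0.16 ± 0.11 under anti-PD1 (edgeR adjusted p = 0.63). CXCR4 had -0.10 ± 0.05 (edgeR adjusted p = 0.659) and -0.12 ± 0.05 (edgeR adjusted p = 0.35). All of these comparisons share the isotype libraries. Without isotype at 1 µg/ml the KLF2 values were -0.0497 under anti-LAG3 and 0.0736 under anti-PD1, and the CXCR4 values -0.000367 and -0.022.

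Set against the single antibodies, the combination slopes called 0 of 7 members in each case, with 0.644% of genes called against anti-PD1 and 0.766% against anti-LAG3. KLF2 differed by -0.23 (95% interval -0.461 to -0.0058, edgeR adjusted p = 0.49) from anti-PD1 and by -0.11 (95% interval -0.339 to 0.112, edgeR adjusted p = 0.795) from anti-LAG3. CXCR4 differed by -0.10 (edgeR adjusted p = 0.561) and -0.12 (edgeR adjusted p = 0.379). The fall of KLF2 and CXCR4 relative to isotype is therefore not shown to differ between the combination and either antibody alone.

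**Figure D3:**
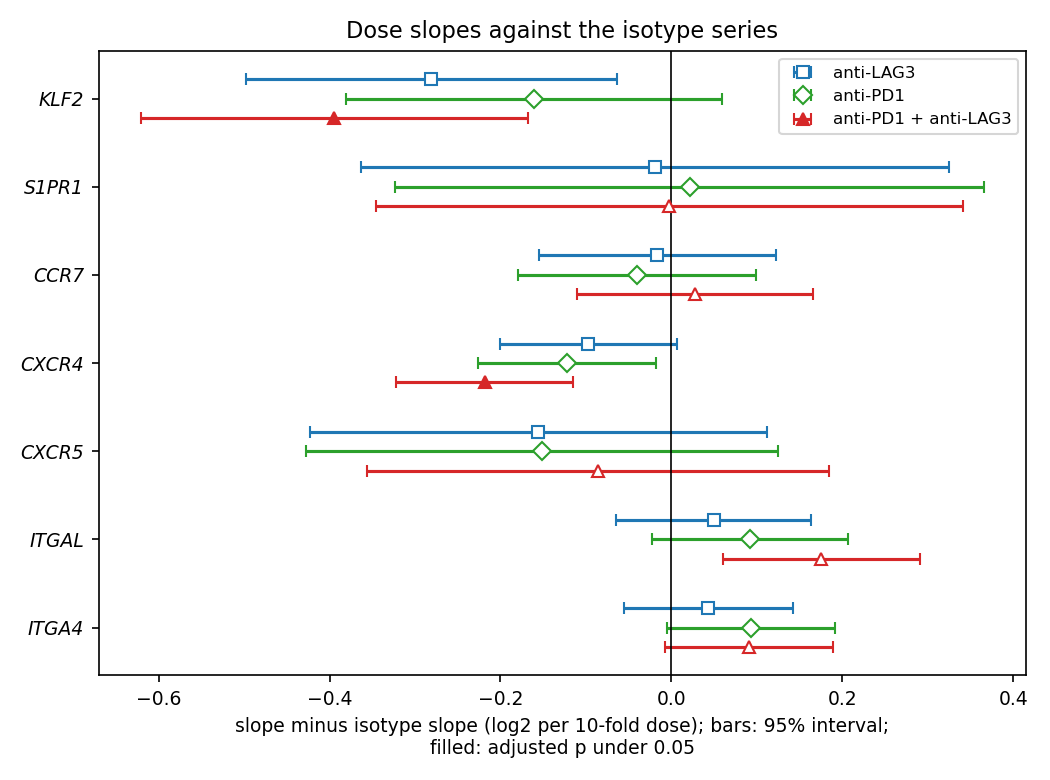
Dose slope of each antibody arm minus the isotype slope (log2 per 10-fold dose, horizontal axis) for the 7 genes, with 95% intervals and filled symbols where the adjusted p is under 0.05. The filled symbols are the combination in KLF2, at -0.39, and in CXCR4, at -0.22, and the intervals of the 3 arms overlap for each gene.

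Averaged over doses, no member passed in any comparison of arms. The share of all genes called was 10.0% for anti-LAG3 against isotype, 3.82% for anti-PD1 against isotype and 0.00644% for the combination against isotype, with 0 of 7 members called in each. It was 0.354% for the combination against anti-PD1 and 5.75% for the combination against anti-LAG3, again with 0 of 7. The members' median difference was 0.0352 under anti-LAG3, 0.119 under anti-PD1 and 0.00652 under the combination on the log2 scale, against medians of -0.00149, -0.00535 and -0.00318 over all genes tested. At an unadjusted p under 0.05 the members numbered 0, 3 and 1 in those arms. The share of all genes at that unadjusted threshold is not given here, so these counts cannot be set against it.

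KLF2 was at 11.9, 13.6 and 13.5 CPM under anti-LAG3 and at 13.2, 14.4 and 12.7 CPM under anti-PD1, at 1, 0.1 and 0.01 µg/ml. Both arms lay above the isotype libraries at 0.1 and 0.01 µg/ml, and above all 3 combination libraries. The arm difference from isotype was 0.24 ± 0.12 for anti-LAG3 (edgeR adjusted p = 0.22), 0.29 ± 0.12 for anti-PD1 (edgeR adjusted p = 0.191) and -0.07 for the combination (edgeR adjusted p = 0.989). The combination was below anti-PD1 by -0.35 ± 0.12 on the log2 scale (edgeR adjusted p = 0.175) and below anti-LAG3 by -0.31 ± 0.12 (edgeR adjusted p = 0.141). Without isotype at 1 µg/ml KLF2 was called higher than isotype under anti-LAG3 (0.46, edgeR adjusted p = 0.00527) and anti-PD1 (0.51, edgeR adjusted p = 0.00572). Calls over all genes rose too, to 2045 from 1560 under anti-LAG3 and to 1044 from 594 under anti-PD1. Without that library the combination was also called lower than anti-PD1 (-0.37 ± 0.09, edgeR adjusted p = 0.0346) and anti-LAG3 (-0.32 ± 0.09, edgeR adjusted p = 0.0286). The sizes were nearly the same as with all libraries, and calls over all genes were 353 in place of 55 and 1487 in place of 893. KLF2 was likewise called with no filter on low counts (-0.35, edgeR adjusted p = 0.0285, and -0.32, edgeR adjusted p = 0.0303), with 349 and 1292 calls over all genes. Without the combination at 1 µg/ml the KLF2 differences from anti-PD1 and anti-LAG3 were -0.22 (edgeR adjusted p = 0.436) and -0.17 (edgeR adjusted p = 0.475).

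S1PR1 was at 6.14, 6.16 and 6.04 CPM under anti-PD1 at 1, 0.1 and 0.01 µg/ml, each above every isotype library. Under anti-LAG3 it was at 5.42, 4.83 and 5.66 CPM, which overlapped isotype. The difference from isotype was 0.38 ± 0.13 for anti-PD1 (SE, 95% interval 0.108 to 0.657, edgeR adjusted p = 0.106), 0.18 for anti-LAG3 (edgeR adjusted p = 0.45) and 0.22 for the combination (edgeR adjusted p = 0.88). The anti-PD1 value was the largest arm difference from isotype of any member, on 141 to 174 reads per library, and it missed the threshold.

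CCR7 (ENSG00000126353.3, chr17:40553769-40565472, minus strand) was at 34.3, 29.3 and 31.1 CPM in the isotype arm, at 33.7, 32.3 and 31.1 CPM under anti-LAG3 and at 35.1, 34.3 and 33.5 CPM under anti-PD1, at 1, 0.1 and 0.01 µg/ml. In the combination it was at 39.5, 36 and 34.3 CPM. The combination was above the other arms at each dose, at 0.01 µg/ml by the least, and each arm was highest at 1 µg/ml. The combination differed from isotype by 0.21 ± 0.06 (95% interval 0.0922 to 0.331, edgeR adjusted p = 0.234) and from anti-LAG3 by 0.18 ± 0.06 (edgeR adjusted p = 0.0716). Anti-PD1 differed from isotype by 0.12 (edgeR adjusted p = 0.281). The comparison with anti-LAG3 passed with a correction for GC content and gene length (0.26, edgeR adjusted p = 0.0155).

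CXCR4 was at 211, 210 and 201 CPM under anti-LAG3 and at 210, 203 and 206 CPM under anti-PD1, at 1, 0.1 and 0.01 µg/ml. These 6 libraries lay inside the range of the isotype arm. The mean was 208 ± 21 CPM (SD, n = 3 doses) for isotype, 207 ± 5.7 for anti-LAG3, 206 ± 3.7 for anti-PD1 and 208 ± 17 for the combination, so the arm means did not differ beyond the spread within arms.

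CXCR5 (ENSG00000160683.4, chr11:118883766-118897799, plus strand) was at 11.7, 9.06 and 9.01 CPM in the isotype arm and at 9.83, 9.06 and 8.45 CPM in the combination arm, at 1, 0.1 and 0.01 µg/ml. It was at 9.45, 10.5 and 8.91 CPM under anti-LAG3 and at 8.55, 10.9 and 7.93 CPM under anti-PD1. The 4 arms overlapped, and isotype at 1 µg/ml was the highest of the 12 libraries, as it was for CXCR4. The genes BCL9L and AP004609.1 overlap CXCR5 on the opposite strand. Since no strand setting is given, it is not known how reads in any stretch they share with CXCR5 were counted. Overlap was taken from whole-gene coordinates, and shared exons were not examined.

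ITGAL (ENSG00000005844.17, chr16:30472658-30523185, plus strand) was at 69.3, 69.2 and 64.8 CPM under anti-PD1 and at 63.1, 63.2 and 62.5 CPM under anti-LAG3, at 1, 0.1 and 0.01 µg/ml. All 6 lay above the 3 isotype libraries. The difference from isotype was 0.18 ± 0.06 under anti-PD1 (95% interval 0.0629 to 0.299, edgeR adjusted p = 0.0779), and this passed when the combination at 0.01 µg/ml (0.18, edgeR adjusted p = 0.0258) or isotype at 0.01 µg/ml (0.25, edgeR adjusted p = 0.0392) was left out. Under anti-LAG3 it was 0.07 (edgeR adjusted p = 0.452). Genes on the opposite strand overlap ITGAL too, AC116348.1, AC116348.2, AC116348.3 and RNU7-61P, and MIR4518 lies on the same strand.

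ITGA4 (ENSG00000115232.13, chr2:181457202-181536187, plus strand) held the narrowest range. It was at 143, 150 and 153 CPM in the isotype arm and at 155, 147 and 146 CPM in the combination arm, at 1, 0.1 and 0.01 µg/ml. Under anti-LAG3 it was at 146, 158 and 148 CPM and under anti-PD1 at 154, 146 and 145 CPM. The arm means were 149 ± 5.3, 150 ± 6.2, 148 ± 5 and 149 ± 4.8 CPM (SD, n = 3 doses), in the order isotype, anti-LAG3, anti-PD1, combination, and the arms overlapped throughout.

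**Figure D4:**
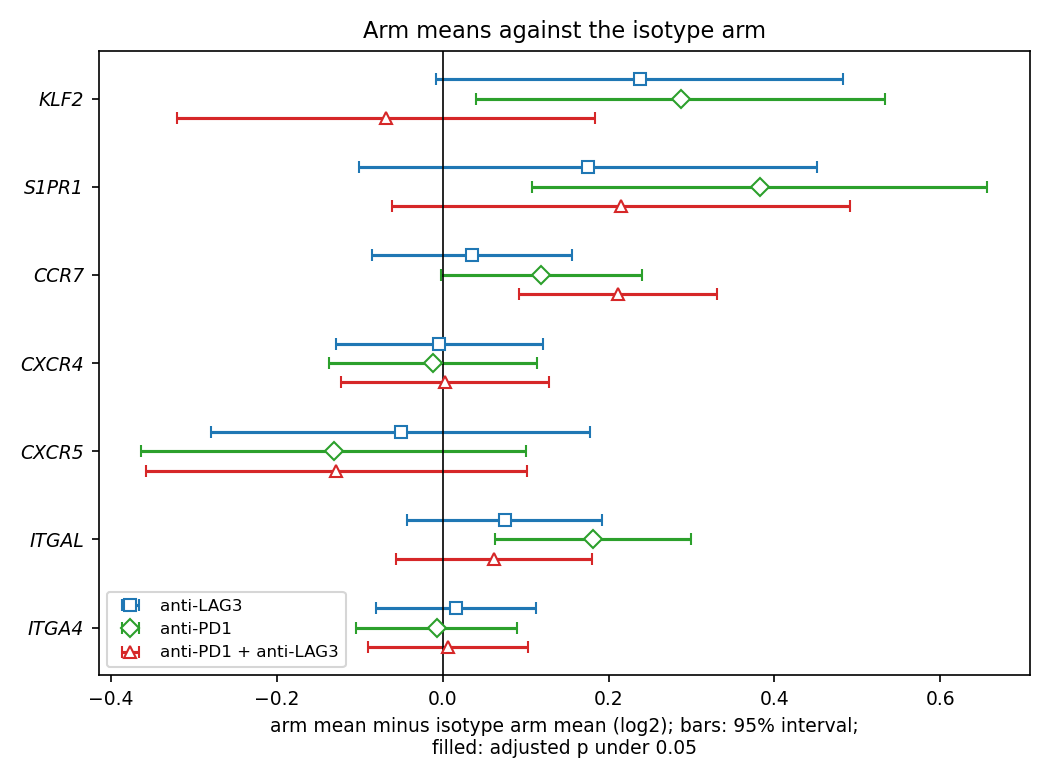
Arm mean minus isotype arm mean (log2, horizontal axis) for the 7 genes, with 95% intervals and filled symbols where the adjusted p is under 0.05. No symbol is filled, and the largest value is S1PR1 under anti-PD1, at 0.38.

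In the authors' deposited tables, which set each antibody library against the 3 isotype libraries, 0 of the 7 members had an adjusted p under 0.05 in any of 9 tables. Of all genes with an adjusted p given, 0% to 2.84% passed in those tables, and 14 of the 63 adjusted p-values of members were not given. The lowest adjusted p of a member in the authors' deposited tables was 0.437, for CCR7 in the combination at 1 µg/ml, with a log2 change of 0.33. KLF2 there had log2 changes of -0.32, 0.00 and 0.11 in the combination at 1, 0.1 and 0.01 µg/ml in the authors' deposited tables.

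Other genes of the trafficking pathways were taken from 6 lists of 119 symbols, of which 117 were in the table and 96 were tested. The lists were chosen with earlier results of these data known, so their counts of calls are no test of the pathways against all genes. In the combination slopes, relative to isotype, 5 rose and 8 fell, where 4.63% of all genes tested were called, and their median was 0.017 against 0.00614. The list of transcription factors, which also holds the kinase MAPK7, had 11 genes tested, and 0 passed in these slopes. Among them FOXO1, a known activator of KLF2, had a slope difference of 0.05 (edgeR adjusted p = 0.767) and was at 35.8 to 41.2 CPM. Of 13 other chemoattractant receptors tested, 0 passed in any comparison with isotype.

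The smallest p in these lists was that of CD69. CD69, the activation antigen that binds S1PR1 and draws it into the cell, was at 52.2, 27.3 and 13.6 CPM in the combination at 1, 0.1 and 0.01 µg/ml, and at 11.2, 13.5 and 12.2 CPM in the isotype arm. Its slope difference was 1.03 ± 0.09 (edgeR adjusted p = 3.75e-08), and the single antibodies gave 0.66 (anti-LAG3, edgeR adjusted p = 0.00111) and 0.66 (anti-PD1, edgeR adjusted p = 0.00139). CD69 kept its combination call in every setting and with each library left out. Without isotype at 1 µg/ml the single antibodies gave 0.45 each and missed the threshold. The anti-LAG3 slope also missed it without anti-LAG3 at 1 µg/ml (0.76, edgeR adjusted p = 0.314) or 0.01 µg/ml (0.59, edgeR adjusted p = 0.16), and the anti-PD1 slope without anti-PD1 at 1 µg/ml (0.52, edgeR adjusted p = 0.148). The S1P receptors S1PR2 and S1PR3 had lower slopes in the combination than in isotype, by -0.21 (edgeR adjusted p = 0.0196) and -0.34 (edgeR adjusted p = 0.0395), while S1PR1 had -0.00. S1PR2 was at 123, 99.3 and 97.7 CPM in the isotype arm at 1, 0.1 and 0.01 µg/ml, where its own slope rose (0.17, edgeR adjusted p = 0.0225), and at 101, 103 and 107 CPM in the combination. S1PR3 fell in the combination series itself (-0.25, edgeR adjusted p = 0.0441).

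VCAM1, which binds VLA-4, was the 1 of 7 ligands tested that passed in the combination slopes. Its slope difference from isotype was 2.06 ± 0.51 (edgeR adjusted p = 0.0193), on 3 to 48 reads per library. VCAM1 had 48, 12 and 13 reads in the combination at 1, 0.1 and 0.01 µg/ml, and 6, 9 and 17 in the isotype arm. Its own combination slope was 1.14 (edgeR adjusted p = 0.0356). The beta chains ITGB1 (-0.02, edgeR adjusted p = 0.852), ITGB2 (-0.02, edgeR adjusted p = 0.878) and ITGB7 (0.09, edgeR adjusted p = 0.615) did not pass. Relative to the isotype slope, SELPLG, the selectin ligand PSGL-1, fell by 0.55 (edgeR adjusted p = 5.05e-05), CD99 fell by 0.33 (edgeR adjusted p = 0.000137), and CD226 rose by 0.76 (edgeR adjusted p = 0.000104). Of 42 signalling genes 1 rose and 4 fell, among them ARRB2, FYB and WAS at -0.29, -0.19 and -0.24. Apart from CD69, each of the genes named here for a change in the combination slopes missed the threshold without isotype at 1 µg/ml. The sizes without it were close to the full values for VCAM1 (2.01), CD226 (0.69) and FYB (-0.17). They were smaller for SELPLG (-0.34), CD99 (-0.23), ARRB2 (-0.13), WAS (-0.08), S1PR2 (-0.06) and S1PR3 (-0.06). Without the combination at 1 µg/ml VCAM1 was at 0.89 (edgeR adjusted p = 0.726). S1PR2, S1PR3, FYB and WAS also missed the threshold by DESeq2. CXCL12, CCL19, CCL21 and CXCL13, the chemokines of the members' receptors, had 0 to 3 reads per library and were not tested.

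**Figure D5:**
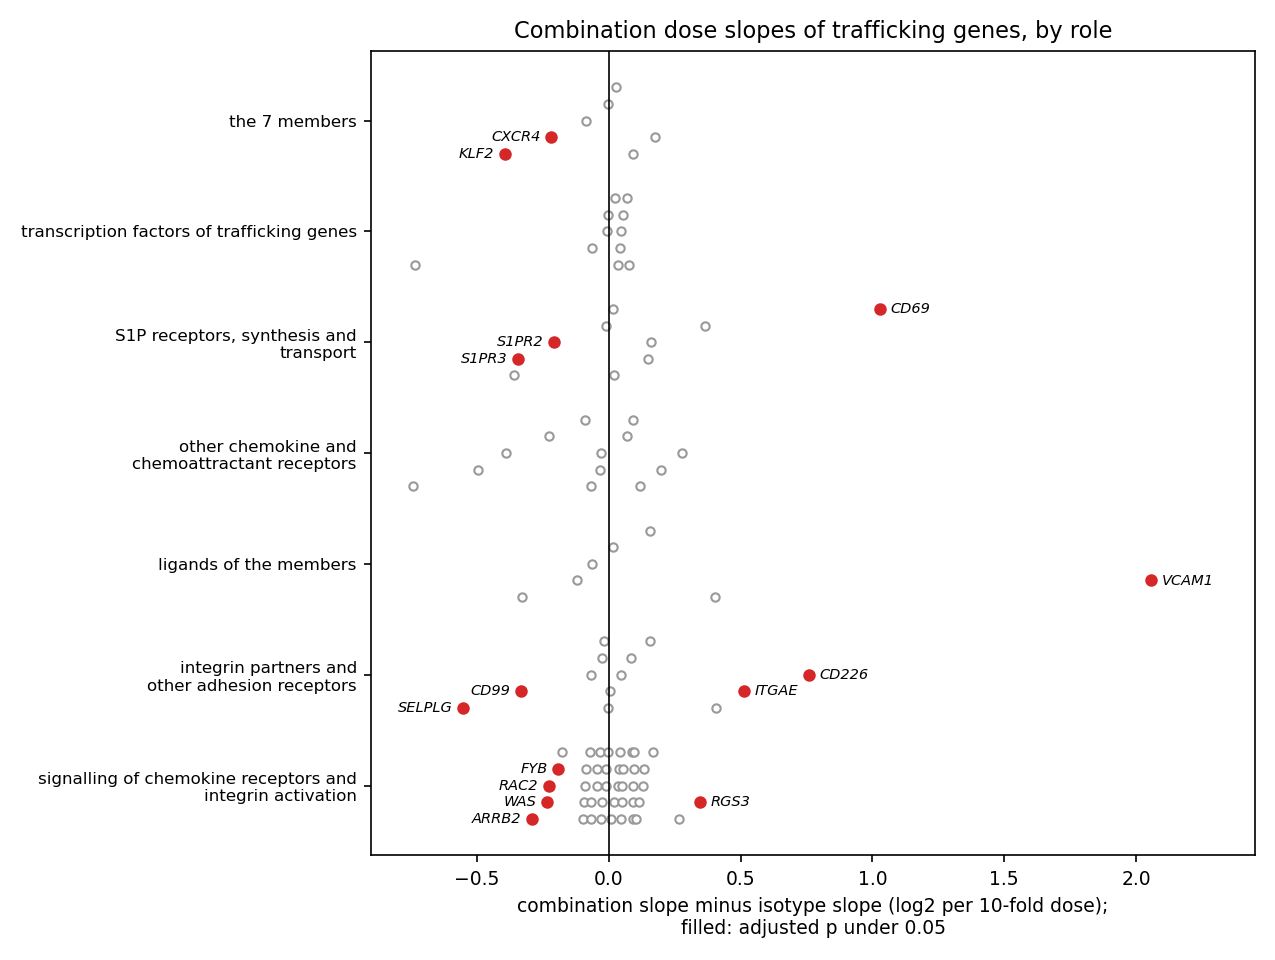
Combination minus isotype dose slope (log2 per 10-fold dose, horizontal axis) of each tested gene in the 7 members and 6 lists of other trafficking genes, filled and named where the adjusted p is under 0.05. CD69, at 1.03, and VCAM1, at 2.06, lie farthest to the right, and KLF2 and CXCR4 lie left of 0.

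In the arm means, 8 of the 96 rose and 5 fell under anti-LAG3, where 10.0% of all genes tested were called. Under anti-PD1 5 rose and 1 fell, where 3.82% were called, and 0 passed in the combination, where 0.00644% were called. The arm test counts differences of response between doses as spread. CD69, which rose with dose, differed by 1.20 ± 0.34 in the combination and did not pass (edgeR adjusted p = 0.574). ITGB2, the partner chain of ITGAL, rose under anti-LAG3 (0.20, edgeR adjusted p = 0.00405) and anti-PD1 (0.19, edgeR adjusted p = 0.0185). S1PR4, an S1P receptor of lymphocytes, rose in both (0.24, edgeR adjusted p = 0.041, and 0.29, edgeR adjusted p = 0.0281), as did ICAM3, a ligand of LFA-1 (0.29, edgeR adjusted p = 0.0215, and 0.29, edgeR adjusted p = 0.042), while ICAM1, another, fell by 0.20 (edgeR adjusted p = 0.00869) and 0.17 (edgeR adjusted p = 0.0421). CORO1A, an actin regulator needed for T cell egress, rose by 0.26 (edgeR adjusted p = 0.00162) and 0.29 (edgeR adjusted p = 0.00424). FOXP1, which restrains the FOXO1 programme, fell by 0.35 under anti-LAG3 (edgeR adjusted p = 0.0017). When the T and B marker balance entered the fit as a covariate, each of these anti-LAG3 differences missed the threshold, and 28 calls were left of 1560 over all genes. Their sizes were not smaller for ITGB2 (0.27), S1PR4 (0.45), ICAM3 (0.35) and CORO1A (0.36), and were -0.31 for FOXP1 and -0.15 for ICAM1. Each of these anti-PD1 differences missed the threshold without isotype at 0.1 µg/ml or without anti-PD1 at 0.01 µg/ml, where all genes together gave 0 calls in place of 594, at sizes near the full ones (without isotype at 0.1 µg/ml, 0.18 for ITGB2, 0.31 for S1PR4, 0.27 for ICAM3, 0.29 for CORO1A and -0.19 for ICAM1).

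The GC content and length correction moved these arm differences further. Under anti-LAG3 it left 0.00758 for S1PR4 (edgeR adjusted p = 0.969), 0.15 for ICAM3 (edgeR adjusted p = 0.307) and 0.14 for CORO1A (edgeR adjusted p = 0.062). Under anti-PD1 it left 0.11 for S1PR4 (edgeR adjusted p = 0.553), 0.16 for ICAM3 (edgeR adjusted p = 0.385), 0.16 for CORO1A (edgeR adjusted p = 0.0971) and 0.11 for ITGB2 (edgeR adjusted p = 0.179). Over all genes the correction left 15 calls of 13686 tested under anti-PD1, in place of 594 of 15535. The anti-LAG3 calls were then 751 of 13686, in place of 1560 of 15535. For ICAM1 the fall passed with this correction in both arms, and for ITGB2 and FOXP1 the change under anti-LAG3 passed. With all libraries and no correction, ICAM2 rose under anti-LAG3 (0.23, edgeR adjusted p = 0.0179) but did not pass under anti-PD1 (0.11, edgeR adjusted p = 0.338). Of 42 signalling genes 4 rose and 3 fell under anti-LAG3, among them GRK6 (0.16, edgeR adjusted p = 0.0324) and WIPF1 (-0.15, edgeR adjusted p = 0.0271). Alternatives for ICAM2, GRK6 and WIPF1 are not given here.

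The genes whose CPM tracked each member most closely over the 12 libraries differed from member to member. KLF2 was closest to ACOT7 (Pearson r 0.948, Spearman rho 0.874), R3HDM4 (0.948, 0.902) and MCM5 (0.943, 0.916), and S1PR1 to RP1-198K11.5 (0.871, 0.685), CNPY2 (0.847, 0.881) and OR7E7P (0.817, 0.902). CXCR4 was closest to NONO (0.956, 0.93), YBX1 (0.95, 0.867) and RPL36A (0.943, 0.825), and CCR7 to FUT8 (0.925, 0.916), NFKBIA (0.911, 0.909) and PLPP5 (0.91, 0.923). CXCR5 was closest to NFE2L3 (0.825, 0.888), RP11-355O1.11 (0.787, 0.531) and CABP1 (0.761, 0.58). ITGAL was closest to WDR45 (0.941, 0.972), FAM234A (0.938, 0.853) and GPAT2 (0.93, 0.916), and ITGA4 to RASA1 (0.907, 0.881), NTNG1 (0.889, 0.804) and SLC35D1 (0.867, 0.776). These values describe the 12 libraries, which share arms, doses and scaling, and they were the highest among the genes tested. Between members, the value farthest from 0 was that of CXCR4 with ITGAL, a Pearson r of -0.5 with a Spearman rho of -0.17, and CCR7 with ITGAL had 0.41 and 0.45.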

How the data were processed

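The authors deposited raw read counts per gene symbol and a gene length in bases. Per the submitters' processing notes the tools were Trimmomatic 0.36, STAR 2.5.2b, featureCounts, Subread 1.5.2 and DESeq2, on GRCh38. Strand setting, annotation release and how multi-mapped reads were counted were not given in the sources used here. The 4 listed KLF2 pseudogenes, KLF2P1 to KLF2P4, were at 0 counts in all libraries. RNA is labelled polyA while the protocol describes total RNA. Deposited comparison tables held log2 fold changes and p-values of the authors, each 1 library against 3 isotype libraries, and are quoted as such.

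Samples were grouped by the treatment label. Columns were matched to samples by the number in the description, and 4 count columns without a match and 36 per-sample columns of the comparison tables were not used. Counts were scaled by TMM and given as CPM, or RPKM with the deposited length. Genes were kept by filterByExpr (minimum count 10) and tested with edgeR 4.0.16 in R 4.3.3 by the robust quasi-likelihood F test, Benjamini-Hochberg adjusted over 15535 genes, called at 0.05. One model had arm plus dose as a factor (6 residual degrees of freedom), the other an intercept and a slope on log10 dose per arm (4 residual degrees of freedom). An SE is the log2 value divided by the root of F. Members, lists and tests were chosen with earlier results of these data known. Named were all members, direct partners, up to 3 called genes per list and comparison with the smallest p, and the 3 genes with the highest Pearson r per member. Own slopes of a series were set against 0. Alternatives were DESeq2 1.42.0 and its size factors, no filter, a T minus B marker covariate, a GC content and length offset, the dose factor removed or shared, and each library left out. GENCODE coordinates and RefSeq promoters were on GRCh38. The dose number is shared by the arms, and nothing in the labels says that it marks a common culture or day.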

Additional observations from a re-analysis of the deposited data

Results flagged for a closer look

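The dose slope of KLF2 differed between the combination and isotype arms by -0.39 on the log2 scale per 10-fold dose, and that of CXCR4 by -0.22. Both were singled out because the difference between the series itself was tested and passed (edgeR quasi-likelihood test, adjusted p = 0.0368 and 0.0109). KLF2 was lower in the combination than in isotype at 1 µg/ml and higher at 0.1 and 0.01 µg/ml, and CXCR4 was lower at 1 and 0.1 µg/ml and higher at 0.01 µg/ml. The isotype library at 1 µg/ml, which was also the deepest, was part of both results, and its part in them beyond the values without it was not tested.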

How the results depend on the processing

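Of the 7 members, 2 were called in the combination slopes against isotype, where 719 of 15535 genes were called. DESeq2 called 1 member, with 294 genes called over all. With a library left out 0 to 3 members were called, with 34 to 955 genes called over all. With the GC content and length correction ITGAL was called beside KLF2 and CXCR4, where 1007 of 13686 genes were called. In the combination arm means 1 member was called in place of 0 under some settings. Against anti-PD1 it was KLF2 with no filter on low counts, where 349 of 36341 genes were called. Against anti-LAG3 it was KLF2 with no filter, where 1292 of 36341 genes were called. With the GC content and length correction it was CCR7 against anti-LAG3, where 467 of 13686 genes were called. With a library left out, members called numbered 0 to 1 in the arm means of anti-LAG3 and anti-PD1 against isotype and of the combination against each antibody. Calls over all genes then ran from 424 to 2045 for anti-LAG3 and 0 to 1044 for anti-PD1 against isotype. For the combination they ran from 0 to 353 against anti-PD1 and 47 to 1487 against anti-LAG3. With the replicate block of a dose factor shared by the arms, the slope differences were -0.40 for KLF2 (adjusted p = 0.0182) and -0.22 for CXCR4 (adjusted p = 0.00177), with 1022 calls over all genes in place of 719, and no member's call changed. Without the dose factor in the arm means, no member was called.

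Small values changed sign. The S1PR1 combination slope became 0.000604 by DESeq2, 0.0233 with the GC correction and 0.00311 with the block, and -0.563 to 0.57 with a library left out. The T minus B covariate gave -0.00115 for S1PR1 in the anti-LAG3 arm and 0.0721 for CXCR4 in the slope of the combination against anti-PD1. With a library left out, combination slopes against isotype ran from -0.12 to 0.19 for CCR7 and -0.26 to 0.10 for CXCR5. KLF2 ran from -0.376 to 0.0736 in the anti-PD1 slope, -0.18 to 0.14 in the combination arm mean and -0.0484 to 0.40 in its isotype slope. CXCR4 ran from -0.227 to 0.0356 and -0.252 to 0.0105 in the combination slopes against anti-PD1 and anti-LAG3, and -0.215 to 0.0478 in its combination slope. The cause was not tested. Calls over all genes in the combination slopes were 34 to 1022 under the alternatives, and in the arm means 28 to 2045 for anti-LAG3 and 0 to 1044 for anti-PD1. Of the 7 members, S1PR1 had the fewest reads, 112 to 177 per library.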
